A study of Zea mays with 4 samples.

Results

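The genes described here encode the cytokinin receptors and the phosphotransfer proteins that carry their signal in maize (Zea mays). They were chosen by name: a probe set belonged to the group where its single annotated gene had a symbol or synonym made of HK or HP and a number, with or without the prefix Zm, whatever its level. The rule gave 6 genes of the 1108 that the annotation names: the receptor genes HK1 (LOC541634), hk2 (LOC541641) and hk3 (LOC541642), and the phosphotransfer genes HP1 (LOC542586), hp2 (LOC541625) and HP3 (LOC542596). Each had 1 probe set, meaning the oligonucleotides that together report 1 transcript, so they make up 6 of the 17621 probe sets other than controls. The reference gene table holds 3 further names of this kind, HK1a2 (LOC732761), HK1b1 (LOC732762) and HK1b2 (LOC732835), which no probe set is named for. Whether probes of HK1 also bind transcripts of these genes was not tested.

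Cytokinins are adenine-derived hormones that promote cell division, delay ageing of leaves and shape shoots, roots and vascular tissue. Their receptors are membrane-bound histidine kinases: hormone binding leads to phosphorylation of a histidine, and the phosphate passes to an aspartate in the same protein. From there the small phosphotransfer proteins, which move between cytoplasm and nucleus, carry it on a histidine to response regulators. Type-B response regulators are transcription factors, and type-A regulators, whose genes cytokinin induces, dampen the signal.

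RNA was measured on 4 Affymetrix Maize Genome arrays, 2 for each of 2 inbred lines that the labels describe by digestibility. F98902 is the line of bad digestibility and Cm484 that of good digestibility. Neither line was treated. Greenhouse temperatures were 22 °C during the 14 h light period and 20 °C at night, and sampling took place in the flowering stage, at 24 h ahead of ovulation. As to tissue, stem stands in the growth protocol but root in the extraction protocol, so the tissue remains unsettled. With 1 line of each kind, a difference cannot be tied to digestibility rather than to anything else in which the lines differ, and since separate plants are not stated for the replicates, the p-values cover no more than the variation among these 4 samples, part or all of which may be technical.

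Levels are the deposited log2 values, a value of 5 or more is called detected, and differences are F98902 minus Cm484 with the standard error (SE) of a limma fit across the 10131 probe sets detected on at least 2 arrays. "Called" means a Benjamini-Hochberg adjusted p under 0.05 in that fit. The lines differed widely, with 3533 probe sets called (34.9%), and replicate arrays correlated at 0.979 and 0.982 across probe sets kept, against 0.765 to 0.790 between lines. The F98902 replicates stood apart, in opposite directions, in the controls at the 5′ end of housekeeping transcripts. The median of 5 probe sets at the 5′ end of housekeeping transcripts lay, relative to the other 3 arrays, at 0.86 (log2) on replicate 1 and -0.83 on replicate 2, against 0.12 and 0.00 for 5 at the 3′ end. The added poly-A spikes lay at -0.65 on replicate 1 and 1.22 on replicate 2, against -0.18 and -0.44 on Cm484 replicates 1 and 2. Each value is relative to the other 3 arrays, so a high replicate 2 lowers the rest. The spike medians were 5.95 and 7.86 in F98902 and 6.33 and 6.32 in Cm484. For the spikes, replicate 2 of F98902 alone stood clearly apart. Replicate 2 also had the least RNA in the labels, 120.7 ng against 312.4 to 416.8 ng.

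Of the 6 genes, only hk3 was called, and it was higher in Cm484. All 6 were detected on all 4 arrays, as were 8957 of all probe sets (50.8%), so none passed the filter through 1 line alone. The call of 1 in 6 (16.7%) stands beside 34.9% of all probe sets kept, or 17.1% for calls higher in Cm484. The differences of the 6 ran from -1.15 to 0.38 with a median of -0.30, and their median size of 0.37 compares with 0.44 for all probe sets kept.

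hk3, also named HK3a, showed the clear difference among the receptors. Its probe set read 6.09 and 6.06 on F98902 replicates 1 and 2 and 7.26 and 7.18 on Cm484 replicates 1 and 2. Both F98902 arrays lay more than 1 log2 unit below both Cm484 arrays, with little spread inside either line. The line means were 6.07 ± 0.02 (SD, n = 2) and 7.22 ± 0.06 (SD, n = 2). The level was 2.21-fold higher in Cm484 (-1.15 ± 0.15 SE, 95% interval of the fold 1.69 to 2.89, limma adjusted p = 0.00424). The difference had the same direction on every pairing of arrays, and it stayed called with any 1 array left out, with adjusted p between 0.0205 and 0.0283. It was -1.16 (adjusted p = 0.0205) without F98902 replicate 1 and -1.13 (adjusted p = 0.0241) without F98902 replicate 2, the arrays apart in their controls.

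The difference of hk3 was moderate for these lines: 21.0% of probe sets kept differed by more in either direction, and 9.79% lay further toward Cm484. Its probe set carries the suffix that the array's maker gives to sets matching several transcripts of a gene, and the reference table lists 18 transcripts for hk3, against 1 to 3 for each of the other 5 genes. Which of these transcripts the probes report was not tested. Fewer cells that express the gene and less RNA per cell cannot be told apart in bulk RNA, and a sequence difference between the lines under the probes cannot be told apart from a difference in RNA level.

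The other receptor genes gave smaller values. HK1, whose gain-of-function alleles cause the Hairy Sheath Frayed1 leaf phenotype, read 7.20 and 7.35 in F98902 and 7.51 and 7.50 in Cm484. The ranges did not overlap, but the difference of -0.23 ± 0.16 (SE) was not called (adjusted p = 0.306). Its 95% interval ran from -0.63 to 0.16, which allows at most 1.55-fold. For hk2 the values were 7.20 and 7.30 in F98902 and 7.28 and 7.39 in Cm484. These ranges overlapped, and the difference was -0.09 ± 0.16 (SE, adjusted p = 0.687). The interval of hk2, from -0.49 to 0.30, allows at most 1.40-fold. HK1 and hk3 lie on the same chromosome in the reference table with 2286 protein-coding genes between them, so they are not neighbours.

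**Figure D1:**
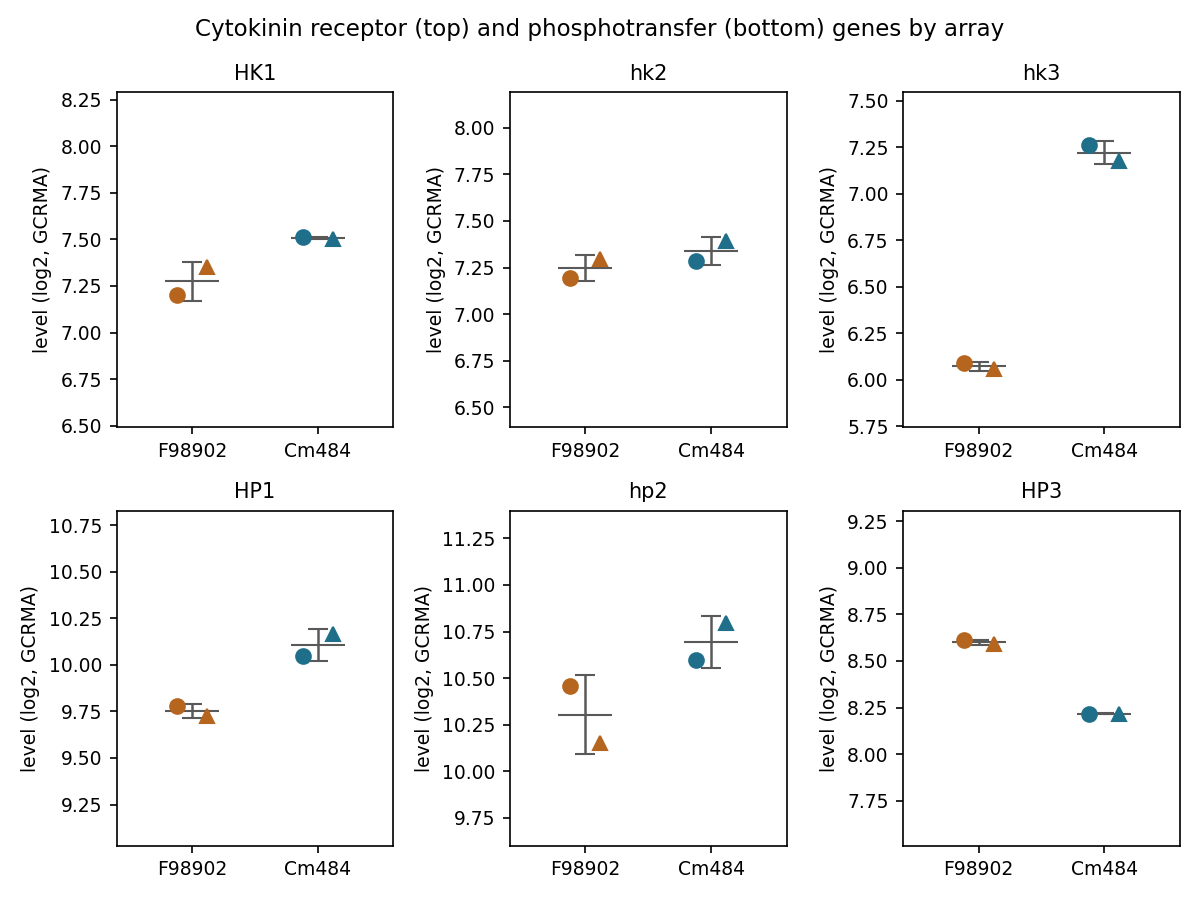
Level (log2, GCRMA) of each gene on every array, F98902 in brown and Cm484 in blue, replicate 1 as a circle and replicate 2 as a triangle, with the line mean and SD in grey. Every panel spans the same number of log2 units; hk3 reads 6.06 to 6.09 in F98902 and 7.18 to 7.26 in Cm484, while the lines overlap for hk2 alone.

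None of the phosphotransfer genes was called by limma, and 1 of the 3, HP3, had an unadjusted p under 0.05. HP1 read 9.78 and 9.72 in F98902 and 10.05 and 10.17 in Cm484, so both F98902 values lay below both Cm484 values. Its difference was -0.36 ± 0.15 (SE, 95% interval -0.75 to 0.03, adjusted p = 0.135), which allows at most 1.68-fold. hp2 read 10.46 and 10.15 in F98902 and 10.60 and 10.79 in Cm484. Again the ranges did not overlap, but hp2 had the widest replicate gap of the 6 genes, with replicate 2 minus replicate 1 of F98902 at -0.30, and the difference of -0.39 ± 0.19 (SE) was not called (adjusted p = 0.167). Its interval, -0.86 to 0.08, allows at most 1.82-fold.

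HP3 was the single gene of the 6 with higher values in F98902. It read 8.61 and 8.59 there and 8.21 and 8.22 in Cm484, the tightest replicates of the group. The difference was 0.38 ± 0.15 (SE, 95% interval 0.01 to 0.76, limma adjusted p = 0.106). With no filter on low values, its adjusted p was 0.0337, so HP3 is then called, with the same difference and an SE of 0.06. The pooled replicate SD of HP3 was 0.01, smaller than that of all but 0.227% of probe sets kept, and limma draws such spreads toward the common one, which the filter changes. Its interval allows at most 1.70-fold.

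**Figure D2:**
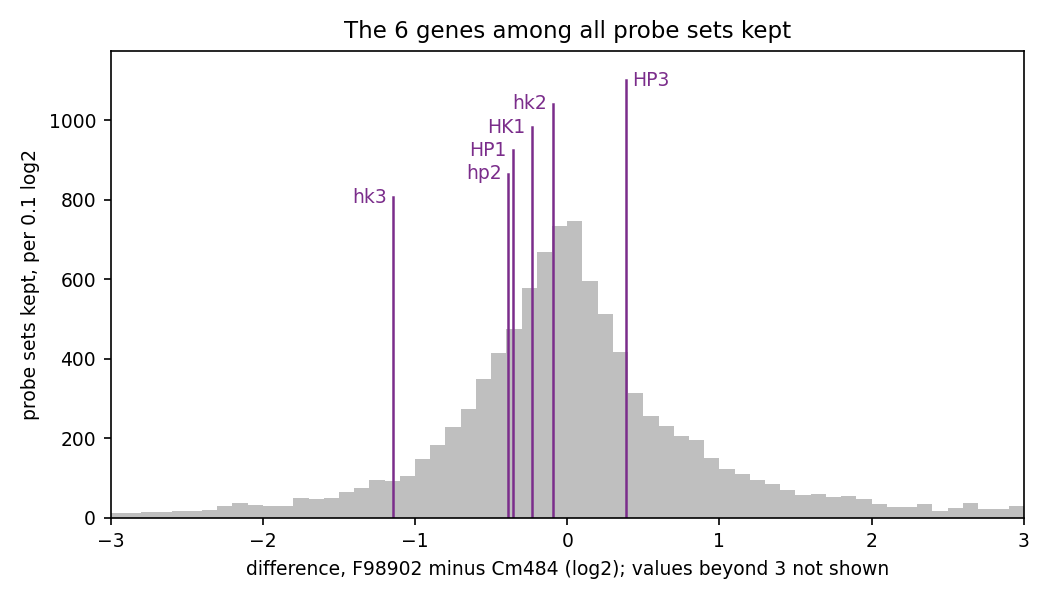
Histogram of the difference between lines (log2, F98902 minus Cm484) over the 10131 probe sets kept, in grey, with a line for each of the 6 genes at its own difference; line height has no meaning, and 567 probe sets lie beyond the axis. hk3 stands at -1.15, the other 5 between -0.39 and 0.38.

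The genes were also set against each other within arrays, in comparisons chosen after their values were seen. hk3 relative to the mean of the other 5 genes gave a difference between lines of -1.01, and relative to the mean of HK1 and hk2 one of -0.98. HP3 relative to the mean of HP1 and hp2 gave 0.76. In each of these 3 comparisons the arrays of the lines did not overlap, but 2 arrays against 2 allow no exact permutation p below 0.333 (two-sided), which all 3 gave, so unequal change is not shown by this test. Values that did not overlap between lines were seen for 5 of the 6 genes, beside 72.0% of all probe sets kept, so that count is near the background.

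Replicates of these genes were close. Replicate 2 minus replicate 1 ran from -0.30 to 0.15 in F98902 and from -0.09 to 0.20 in Cm484. The pooled replicate SD was smaller than that of most probe sets for 5 of the 6: only 6.0% of probe sets kept were tighter than hk3, 11.4% tighter than HP1, 13.9% tighter than hk2 and 14.0% tighter than HK1. For hp2 the share was 50.5%. The median SD of all probe sets kept was 0.15 in F98902 and 0.14 in Cm484. The SEs of the 6 differences, 0.15 to 0.19, rest more on that common spread than on the replicates of each gene, since limma gave it 3.26 degrees of freedom against 2.

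The differences of the 6 genes were recomputed under 13 other settings of the filter, the scaling, the variance model, the replicate block and the arrays used. hk3 was called in all 12 that use its probe set, and the 1 without it leaves out probe sets of shared sequence. HK1, hk2, HP1 and hp2 were called in none of the 13, and HP3 in 1. The widest movement was that of hp2, from -0.54 without F98902 replicate 1 to -0.24 without F98902 replicate 2.

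**Figure D3:**
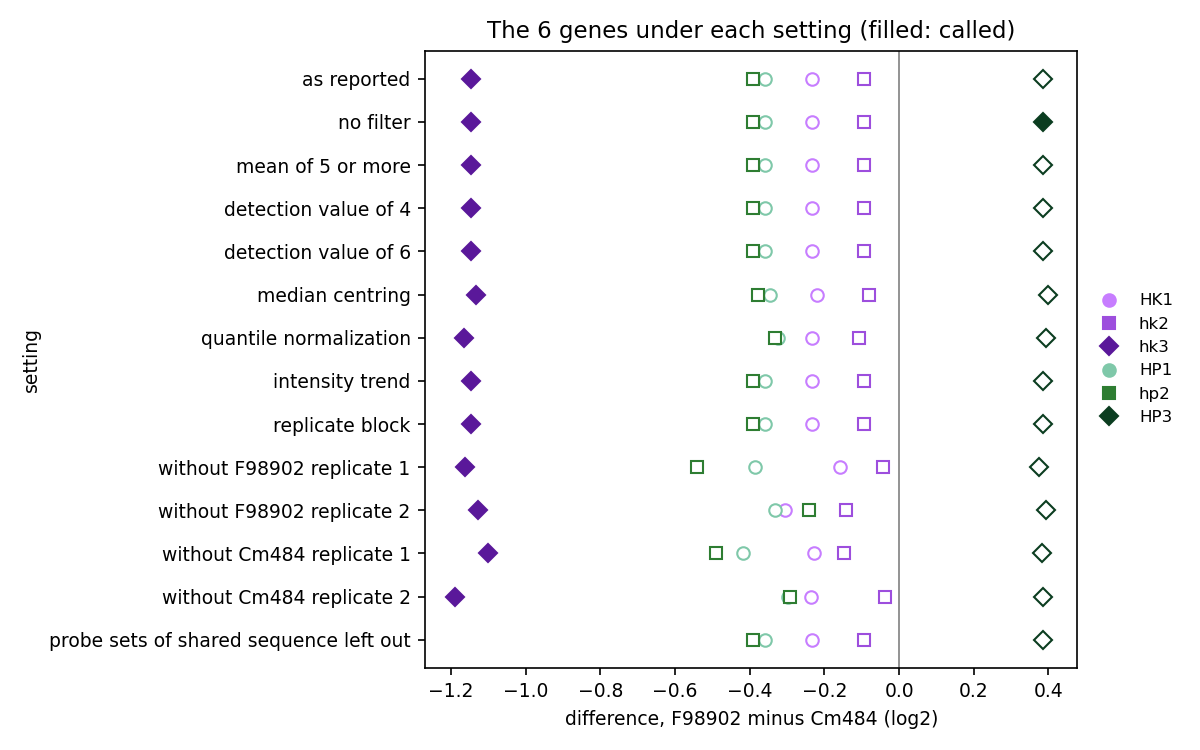
Difference between lines (log2, F98902 minus Cm484) of the 6 genes as reported and under each of 13 alternative settings; filled points are called. hk3 stays between -1.19 and -1.10 and called wherever its probe set is used, and HP3 is called with no filter.

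Among 773 other probe sets kept with 1 informatively named gene, the profile over the 4 arrays nearest to that of hk3 belonged to cop2 (LOC541811), at a root mean square distance of 0.06 (log2) after each profile was centred. cop2 read 11.07 and 11.06 in F98902 and 12.37 and 12.27 in Cm484. Next came x34.2 (LOC732750), at 0.06, and the plasma membrane aquaporin gene PIP1-1 (LOC542434), at 0.09, with differences of -1.03 each. For HK1 the nearest were 334B7.2 (LOC541769), homeobox3 (LOC542440) and yptm3 (LOC542765), at 0.04 to 0.05, and for hk2 MPK4, a MAP kinase name, hxa103 (LOC542677) and PP1 (LOC542269), at 0.03 to 0.05. HP1 lay nearest to GRF4 (LOC100101537), to the sucrose synthase gene sh1 (LOC542365) and to the protein disulfide isomerase gene pdi4 (LOC606412), at 0.03 to 0.05. hp2 lay nearest to gsy199(ptk) (LOC542271), to the ferredoxin gene fdx3 (LOC542276) and to the cinnamoyl-CoA reductase gene CCR (LOC542463), at 0.02 to 0.04. HP3 lay nearest to the prohibitin gene phb2 (LOC541816), to the light-harvesting gene Cab-m7 and to mbd106, at 0.03 to 0.05. Such a likeness rests on 4 arrays of 2 lines and describes them only.

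Downstream of the phosphotransfer proteins, response regulator genes were called in both directions. Of 10 probe sets for 9 genes, 8 were kept and 4 called, beside 34.9% of all probe sets kept. Of these, 3 were called higher in F98902 (17.7% of all probe sets kept were), and 1 was called higher in Cm484 (17.1%), with a median difference of 0.05 beside -0.02 for all probe sets kept. The type-A gene RR6 (LOC541632) read 7.83 and 8.66 in F98902 and 5.10 and 5.50 in Cm484, 7.70-fold apart (adjusted p = 0.00214). crr1 (LOC541613, also named RR11), a cytokinin response regulator, differed by 2.14 ± 0.27 (SE, adjusted p = 0.0035), with F98902 4.40-fold higher. RR4 (LOC541630) was called in the same direction (1.46 ± 0.36 SE, adjusted p = 0.0301), from 5.88 and 6.88 against 5.09 and 4.74, but its second probe set, which was not kept, read 4.67 and 4.68 against 4.33 and 5.01, a difference of 0.00. RR7 (LOC541633) went the other way, at -1.05 ± 0.26 (SE, adjusted p = 0.032). Without Cm484 replicate 1 or Cm484 replicate 2, neither RR4 nor RR7 was called, which left 2 calls. RR4 was also lost without F98902 replicate 2, and RR7 without F98902 replicate 1. RR5, the other type-A gene kept, was not called. It read 7.60 and 8.43 in F98902 and 8.25 and 8.61 in Cm484, with overlapping ranges (-0.41 ± 0.32 SE, limma adjusted p = 0.363).

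The type-B genes RR8 (LOC541636), RR9 (LOC541638) and RR10 (LOC541639) had differences of -0.14, 0.04 and 0.06, and none was called by limma, nor did any have an unadjusted p under 0.05. RR3 (LOC541629), known as ABERRANT PHYLLOTAXY1 for its part in leaf arrangement, was below detection on all 4 arrays, at 2.24 to 2.29.

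The list for cytokinin metabolism took in genes that release, store or break down the hormone and none that makes it. Of its 6 genes, with 7 probe sets, 3 had a probe set kept. The beta-glucosidase gene glu1 (LOC542414), whose enzyme can free cytokinins from their glucosides, read 2.48 and 2.54 in F98902 and 6.91 and 5.49 in Cm484. It was called, and at least 2.29-fold higher in Cm484 (adjusted p = 0.00356), a bound that depends on the array. Since the Cm484 arrays alone carried it past the filter, it had to be higher there. The cytokinin oxidase genes, whose enzymes degrade the hormone, were not called, with 0.27 ± 0.33 (SE) for cko2 (LOC542507) and -0.08 ± 0.27 (SE) for cko3 (LOC542056). cko (LOC542585, also ckx1), glu2 (LOC732807) and the O-glucosyltransferase gene ciszog1 (LOC541881), whose enzyme glucosylates cis-zeatin, were below detection on all 4 arrays.

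KNOX homeobox genes act upstream of cytokinin synthesis in rice and Arabidopsis. Of 5 probe sets that the name pattern took in, 3 were kept and limma called none, while 1 had an unadjusted p under 0.05. That was knox7 (LOC732756), which read 8.53 and 7.98 in F98902 and 8.97 and 9.05 in Cm484 (-0.76 ± 0.23 SE, adjusted p = 0.0543). lg3 (LOC542487) and kn1 (LOC542391) gave 0.31 ± 0.18 and -0.20 ± 0.17 (SE). The pattern also took in rs2 (LOC542488), a MYB gene that represses KNOX genes, which was not kept.

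**Figure D4:**
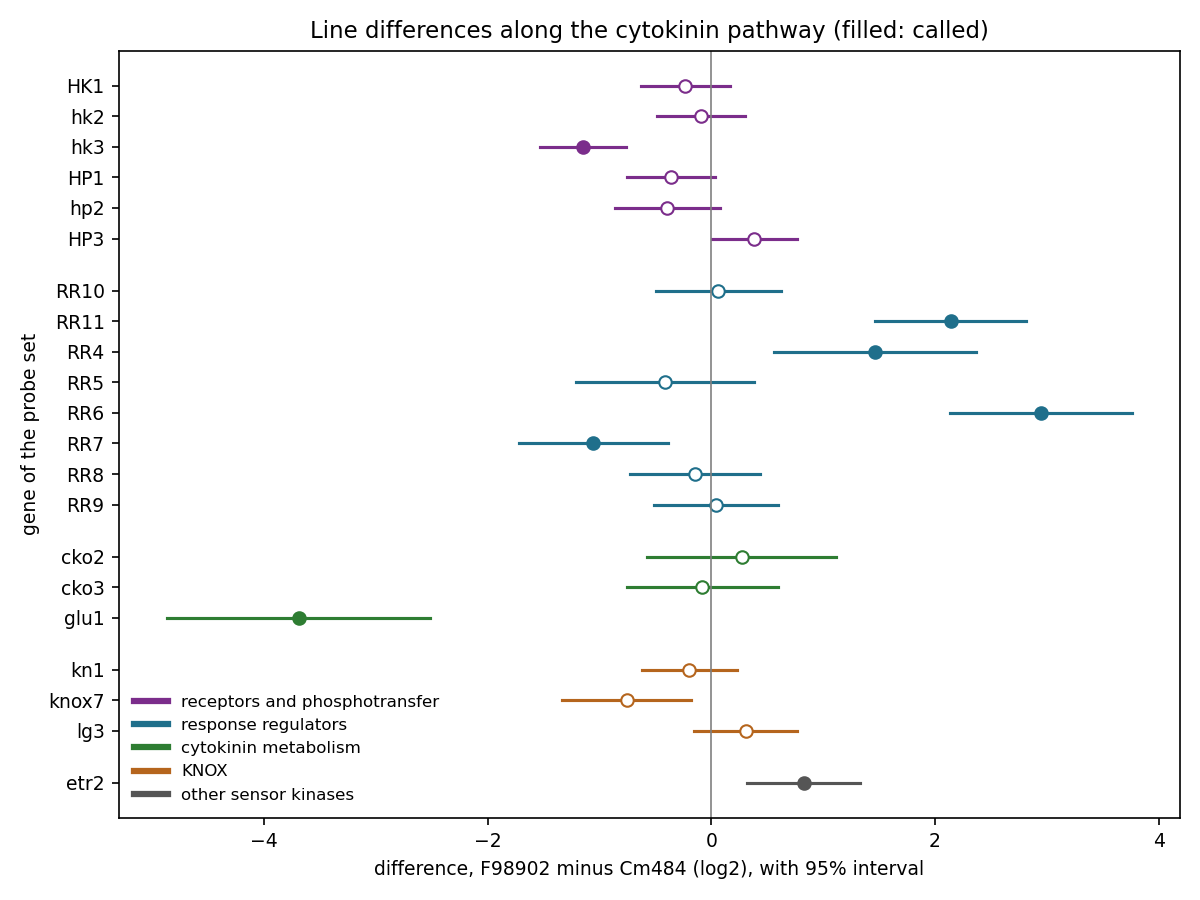
Difference between lines (log2, F98902 minus Cm484) with its 95% interval for the 6 genes and for the kept probe sets of response regulators, cytokinin metabolism, KNOX genes and other sensor kinases; filled points are called, and the point of glu1, below detection in F98902, is no exact difference. hk3 (-1.15) is the filled point of the 6; the response regulators reach from -1.05 (RR7) to 2.95 (RR6).

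The ethylene receptor gene etr2 (LOC541627), from a related family of sensor kinases, read 8.82 and 8.92 in F98902 and 7.84 and 8.25 in Cm484. The difference of 0.83 ± 0.20 (SE, adjusted p = 0.0285) was called toward F98902, opposite in direction to hk3. Leaving out either F98902 array or Cm484 replicate 1 removed the call, as did dropping the filter. Its second probe set was below detection.

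Markers of other tissues and cell states gave mixed values. The summed level of 40 probe sets matched by green tissue names was 68388 and 65818 (linear units) in F98902 and 38079 and 44083 in Cm484. Of the 27 kept, 11 were called higher in F98902 and 2 in Cm484, beside 17.7% and 17.1% of all probe sets kept. Several of the calls toward F98902 were probe sets of the same gene, PPDK or lhcb6. A further kept probe set of PPDK differed by 0.01 and was not called. The pattern also took in unrelated names such as mez and met, and met2 was among the calls toward F98902. For 25 probe sets of dividing cells the sum ran from 5849 to 6156 in F98902 and from 3856 to 5394 in Cm484, with 3 of 12 called, or 25% beside 34.9%. In that list 4 of the 12 kept had a higher mean in F98902 and 8 in Cm484. The calls were 2 higher in F98902 and 1 in Cm484. Those toward F98902, a probe set of his1 and 1 of cenH3, passed the filter through that line alone. The call toward Cm484 was pcna2 (-1.41 ± 0.22 SE, limma adjusted p = 0.00712). The highest of the list, his1a, was not called and weighs most in the sum, at 11.81 and 11.93 in F98902 and 11.50 and 10.70 in Cm484. The root name pattern matched 5 probe sets, whose sum was 778 to 1219 in F98902 and 1160 to 1338 in Cm484. It also took in MRP names, which need not mark root. Of these MRP4, not called, read 10.21 and 9.56 in F98902 and 9.76 and 9.57 in Cm484. The sum is therefore no measure of root tissue. The root-preferential zrp4 was the single call of the list. It was carried past the filter by the Cm484 arrays alone, at 8.83 and 8.59 in Cm484 and 2.34 and 2.07 in F98902. The part of these markers in the difference of hk3 was not tested.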

How the data were processed

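The values are log2 expression of 4 arrays in 1 table that the authors deposited, made with GCRMA in R 2.6.2 per the submitters' processing notes. GCRMA corrects background by probe sequence, normalizes arrays by quantiles and summarises each probe set. For other steps, nothing is given in the sources used here. The values were used as they stand; the array medians were 5.87 to 5.98, and the number of arrays limits the precision. Probe sets were named from GEO's platform annotation (1452 probe sets with 1 gene, 16281 with none), updated through gene identifiers: 1060 of 1108 were found in the reference table, among them all 6 genes described. That table was used for names, transcript numbers and gene order only.

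The 113 control probe sets were left out, and probe sets at 5 or more (log2) on at least 2 arrays were kept. F98902 and Cm484 were tested against each other with lmFit and eBayes of limma 3.58.1 (R 4.3.3), without covariates and two-sided, on 2 residual and 3.26 prior degrees of freedom. The p-values were adjusted by Benjamini-Hochberg across every probe set kept. Where both arrays of a line were under 5, the level there is only a bound. The steps were tested on simulated data. The members and lists were chosen with earlier results of these data known. Every member is named, and of each list up to 4 called genes, or the 2 with the smallest p; kn1, rs2, RR5, RR8 to RR10, cko2, cko3, gs, gln1, Gln1-4, GLN6, the marker genes and genes below detection were added after their values were seen. Likeness of profiles is the root mean square distance over the 4 arrays between centred profiles. The labels do not say that a replicate number is shared between the lines, so the number was not used as a block. Samples of the same number did not deviate together (r = -0.02 between the deviations from the line means). Alternatives changed the filter, the scaling, the variance model, the block, the arrays and the use of probe sets of shared sequence.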

Additional observations from a re-analysis of the deposited data

How the results depend on the processing

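Across 13 alternatives, the differences of all 6 genes kept their direction. hk3 was called in each of the 12 that use its probe set (adjusted p 0.00359 to 0.0283). With probe sets of shared sequence left out, that probe set is dropped and 0 of 5 members were called. With no filter 2 were called, HP3 being the second. With the replicate block hk3 had an adjusted p of 0.0135, and 2983 probe sets were called in all; the block changed no call among the 6. With 1 array left out, 2205 to 2706 probe sets were called (2205 without Cm484 replicate 1, 2339 without F98902 replicate 2). Response regulators gave 2 calls with no filter and 2 to 3 with 1 array left out. The cytokinin metabolism list gave 0 with a mean of 5 or more or a detection value of 6, where glu1 is dropped. KNOX genes gave 1 call with a detection value of 6, with an intensity trend and with probe sets of shared sequence left out, and 0 to 1 with 1 array left out. Other sensor kinases gave 0 with no filter and 0 to 1 with 1 array left out. Except where a probe set is dropped, the cause was not tested.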

Other observations

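Nitrate is known to raise cytokinin levels and to induce type-A response regulators in maize leaves. Genes of nitrogen assimilation were called in both directions: 10 of 20 probe sets were kept, of which 2 were higher in F98902, 3 were higher in Cm484 and 5 were not called. Over all probe sets kept, 17.7% and 17.1% were called in these directions and 34.9% in all. For gln3 and nar the direction was fixed, since each passed the filter through 1 line alone. The glutamine synthetase genes gln3 (LOC542215) and gln2 (LOC542400) were higher in Cm484, gln3 at least 9.47-fold, since it was below detection in F98902, and gln2 3.97-fold (adjusted p = 0.000869). Another gene of the family, gln1 (LOC542746), lay the other way, at 0.79 ± 0.24 (SE, adjusted p = 0.0566), and was called under 5 of 13 alternatives. A gene named Gln1-4 (LOC542401) gave -0.63 ± 0.19 (SE, adjusted p = 0.0556) and was called under 1. GLN6 (LOC542520) gave -0.61 ± 0.31 (SE, limma adjusted p = 0.19). It was not called with all 4 arrays, though this too depended on the arrays used. The nitrite reductase gene NIR (LOC542264) was 3.54-fold higher in F98902 (adjusted p = 0.00558), and nar, a nitrate reductase name, read 6.47 and 7.68 there and was below detection in Cm484. A second probe set of each was below detection on all 4 arrays, at 1.91 to 1.94 for NIR and 1.82 to 1.85 for nar. The fifth call, gs (LOC542055), is also named gsh2, a glutathione synthetase name, and was lost with any 1 array left out.

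Between the replicates of F98902, the kept probe sets of type-A regulators gave gaps of one sign. Replicate 2 minus replicate 1 was 0.99 for RR4, 0.83 for RR5, 0.82 for RR6, 0.68 for RR7 and 0.65 for crr1 (RR11). The second probe set of RR4, which was not kept, did not share the gap, at 4.67 and 4.68 on F98902 replicates 1 and 2. Over the same arrays the type-B genes gave 0.03 for RR8, 0.01 for RR9 and -0.30 for RR10, and the 6 receptor and phosphotransfer genes -0.30 to 0.15. Between the Cm484 replicates the kept probe sets of type-A genes gave -0.35 to 0.41 and the type-B genes 0.44 to 0.56. Both F98902 arrays stood apart at the 5′ end of housekeeping transcripts, in opposite directions, and the part of this in the gaps was not tested. The pattern was noticed after the values were seen. Gaps of such size were not particular to type-A genes. On F98902 replicates 1 and 2, nar read 6.47 and 7.68, and cko2, with a gap of the other sign, 8.96 and 8.09. The share of all probe sets kept with such gaps was not worked out.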
